A study of Mus musculus with 33 samples.

Results

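Spleen cells kept for 8 h with an oligodeoxynucleotide (ODN) that lacks CpG motifs were compared with spleen cells kept for 2 h with the same ODN. These cultures were chosen by their labels, as the 3 arrays of the 8 h control ODN group and the 4 arrays of the 2 h control ODN group, which make 7 of the 33 arrays of the series. The cells came from female BALB/c mice aged 2 months, were brought into single-cell suspension and were kept at 37 C in RPMI 1640 with serum. The control ODN was an equimolar mix of the oligonucleotides named 1612 and 1471, at 1 uM. Its role in the study was to show what an ODN does whatever its sequence, beside cultures with a CpG ODN and cultures in medium alone. Further groups used here were the 4 control ODN arrays of 4 h and, as cultures without any ODN, 3 medium arrays of 8 h and 4 medium arrays of 2 h. The design text speaks of independent experiments but does not say how many mice gave cells to each, so the errors below measure the spread between arrays.

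CpG motifs in DNA are recognised by Toll-like receptor 9 in B cells and dendritic cells, and an ODN without them serves as the control for taking up DNA. Cells taken from the spleen lose contact with their tissue, meet new oxygen and nutrient levels, and are stimulated by the handling itself. Immediate early genes, such as those of the FOS and JUN families, are switched on within minutes of a stimulus and are then shut off. Macrophages of the splenic red pulp clear old erythrocytes and are known for genes of complement C1q and of adhesion. Enzymes of glycolysis are among the targets of the hypoxia-inducible factor, and some of them also follow the activation of lymphocytes.

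Each array gave the ratio of spleen cell RNA (Cy5) over a common Universal Mouse Reference RNA (Cy3), on a log scale taken as log2, from which the array's own median was subtracted. A difference between times is therefore relative to the median probe, and a log2 difference of 1 is a doubling. The arrays had values for 10790 to 11053 probes at 8 h, against 7908 to 10901 at 2 h, where repeat 4 had the fewest. Correlations between arrays across genes, with 1 probe per gene, were 0.874 to 0.903 among the 8 h arrays. They were 0.828 to 0.879 among the 2 h arrays and 0.722 to 0.863 between the times. In the series 4 arrays carry lower experiment numbers than the rest, among them repeats 1 and 2 of the 2 h group. Markers of B cells stood above the reference, with a mean log2 ratio over 9 markers of 3.15 to 3.58 at 8 h and of 2.78 to 3.28 at 2 h. For 5 T cell markers the range was 1.18 to 1.87 at 8 h and 0.95 to 1.76 at 2 h.

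Between 2 h and 8 h with control ODN, 935 of 9269 genes tested changed (10.1%, limma, Benjamini-Hochberg adjusted p below 0.05), of which 705 rose (7.61%) and 230 fell (2.48%). The change was 1 or more on the log2 scale for 427 of the genes that rose and for 103 of those that fell. The median difference over all genes tested was -0.0052, and the median standard error of a difference was 0.279. In 870 of the 935 called genes the values of the 8 h arrays did not overlap those of the 2 h arrays, and the same held for 22.1% of all genes tested. Repeat 3 of the 8 h group, whose ratios had the widest spread, weighed most on the count, which was 493 without it. A fit of these 7 arrays alone called 468 genes. Without the 4 arrays of lower experiment number, which include repeats 1 and 2 of 2 h, 744 of 6735 genes tested were called. With a term in the fit that marks those 4 arrays the count was 874.

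The genes that rose most were led by a chemokine, an enzyme of glycolysis and regulators of RNA. Ccl22 encodes a chemokine that draws Ccr4-bearing T cells and is made by dendritic cells and macrophages. Its log2 ratio was 4.09, 3.42 and 3.49 on the 8 h arrays, against 1.07, 0.90, 0.10 and 0.11 on the 2 h arrays. The lowest 8 h value stood well above the highest 2 h value, and the difference was 3.12 ± 0.27 (SE), an 8.69-fold rise (limma adjusted p = 5.6e-08). Wtap encodes a subunit of the complex that methylates adenosine in messenger RNA. It read 2.27, 2.61 and 3.01 at 8 h, against -0.16, 0.64, -0.66 and -0.69 at 2 h. The groups did not overlap, and Wtap rose 7.19-fold (log2 difference 2.85 ± 0.39). Hnrnpll, a regulator of alternative splicing in lymphocytes, read 0.42, 1.25 and 1.44 at 8 h and -1.62, -1.90, -1.74 and -2.05 at 2 h, a difference of 2.86 ± 0.38. A second probe of Hnrnpll gave a difference of 0.49, so the size for this gene depends on the probe.

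Other large rises belonged to genes of transport, signalling and adhesion. Slc33a1, the transporter that brings acetyl-CoA into the endoplasmic reticulum, read 1.70, 2.16 and 2.14 at 8 h, against -1.28, -0.80, -0.87 and 0.35 at 2 h. Its rise of 2.65 ± 0.40 came with no overlap between the times. Tgfbr3, which encodes the TGF-beta co-receptor betaglycan, rose by 2.54 ± 0.50, with 0.28, 1.78 and 1.41 at 8 h and -2.76, -0.84, -0.61 and -1.34 at 2 h. The transcript 3110070M22Rik, for which the files give no function, rose by 2.75 ± 0.37, with values of 2.52 to 3.00 at 8 h and of -0.25 to 0.09 at 2 h.

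Some of the 12 largest rises rested on single arrays or probes. Hspa1a, an inducible chaperone of the HSP70 family, read 4.30, 2.49 and 2.38 at 8 h, against 0.05, 0.60, 1.65 and -0.13 at 2 h. Its difference was 2.51 ± 0.57, and its 8 other probes gave differences between -0.37 and 2.18. Syn2, a synapsin of nerve terminals, rose by 2.70 ± 0.49 on the probe used, and its second probe gave -0.20. Itgb6 (an integrin subunit), Gprc5d (an orphan receptor) and Arhgef25 (a guanine nucleotide exchange factor) had differences of 2.48 ± 0.65, 2.45 ± 0.68 and 2.39 ± 0.73. In Itgb6 the 8 h values were 1.38, 3.73 and 4.82, against 0.53, 1.57, 1.11 and 0.11 at 2 h, so repeat 1 of 8 h lay among the 2 h values. Gprc5d had 1.25, 3.81 and 4.61 at 8 h and 0.63 to 0.91 at 2 h, without overlap. Without repeat 2 or without repeat 3 of the 8 h group none of Itgb6, Gprc5d and Arhgef25 was called, and their highest adjusted p was 0.16, 0.18 and 0.32.

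**Figure D1:**
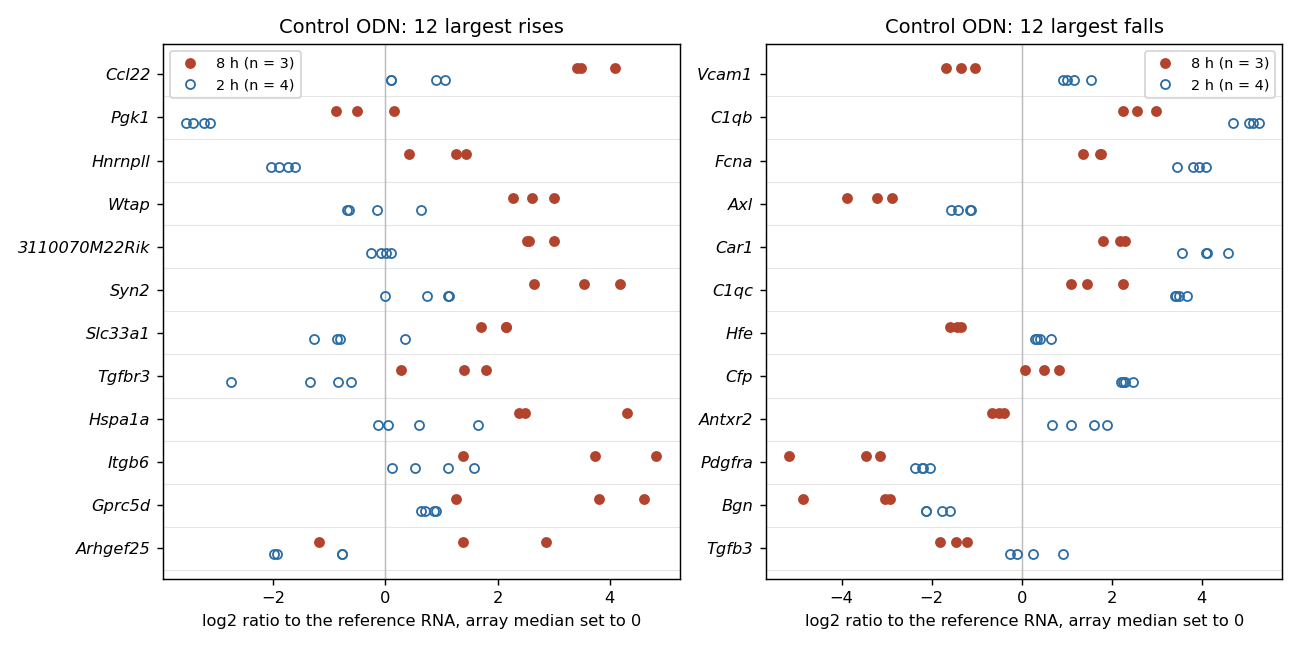
Log2 ratio to the reference RNA, centred on each array's median, for the 12 genes with the largest rises (left) and the 12 with the largest falls (right) among called genes measured on all 7 arrays. Filled points are the 3 arrays of 8 h and open points the 4 arrays of 2 h with control ODN; the times do not overlap in 10 of the 12 rises and in 12 of the 12 falls.

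The genes that fell most included several of macrophages and of complement. Vcam1, an adhesion molecule that marks red pulp macrophages and also endothelium, read -1.03, -1.36 and -1.69 at 8 h, against 1.15, 1.54, 1.01 and 0.91 at 2 h. Every 8 h value lay below every 2 h value, and Vcam1 fell by 2.51 ± 0.23, which is 5.71-fold (limma adjusted p = 2.0e-08). C1qb and C1qc encode chains of C1q, the protein that starts the classical complement pathway. C1qb stood at 2.97, 2.26 and 2.56 at 8 h, against 4.69, 5.06, 5.13 and 5.27 at 2 h. C1qc had 1.46, 1.10 and 2.25 at 8 h, against 3.43, 3.50, 3.40 and 3.67 at 2 h. Neither gene had overlapping groups, and the falls were 2.44 ± 0.22 and 1.90 ± 0.28.

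Axl, a receptor tyrosine kinase through which phagocytes bind dying cells, fell by 2.01 ± 0.26. It read -3.21, -2.89 and -3.88 at 8 h and -1.13, -1.15, -1.43 and -1.56 at 2 h. Fcna encodes the lectin ficolin A, which activates complement and is made by macrophages of spleen and liver. Its values were 1.35, 1.73 and 1.76 at 8 h, against 4.10, 3.46, 3.81 and 3.93 at 2 h, a fall of 2.21 ± 0.23 without overlap. Cfp, the gene of properdin, which stabilises the alternative complement pathway, had 0.83, 0.07 and 0.50 at 8 h and 2.29, 2.22, 2.48 and 2.25 at 2 h. Cfp fell by 1.84 ± 0.18.

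Hfe, the gene of an iron-regulating protein that is mutated in human haemochromatosis, had the smallest adjusted p of all genes tested. It read -1.44, -1.34 and -1.60 at 8 h, against 0.65, 0.35, 0.29 and 0.41 at 2 h, and fell by 1.88 ± 0.15 (limma adjusted p = 2.0e-09). The 8 h and 2 h values of Hfe each lay within a narrow band, and the bands were far apart. Antxr2, an anthrax toxin receptor that binds matrix proteins, fell by 1.84 ± 0.28. Tgfb3, a cytokine of the TGF-beta family, fell by 1.69 ± 0.33, with -1.22, -1.47 and -1.81 at 8 h and 0.24, -0.11, -0.25 and 0.91 at 2 h. The stromal genes Pdgfra (a growth factor receptor) and Bgn (the matrix proteoglycan biglycan) fell by 1.72 ± 0.44 and 1.70 ± 0.45. In both, repeat 3 of 8 h was far lower than the other 8 h arrays, at -5.16 against -3.47 and -3.14 for Pdgfra and at -4.85 against -3.05 and -2.93 for Bgn. Neither was called without that array, with adjusted p of 0.17 and 0.20.

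Read over the whole list of red pulp macrophage markers, 4 of the 12 tested fell (Vcam1, C1qb, C1qc and Axl) and 1 rose. Beside the counts of this and the following lists stand 7.61% of all genes tested that rose and 2.48% that fell. The list's median difference was -0.38, with 7 of the 12 differences below 0 and 5 above. Members that were not called had differences from -1.01 to 0.77. Under all 17 alternatives to the main settings the number that fell was 4, while the number that rose was 0 or 1. The marker that rose was Cd163, the receptor for haemoglobin bound to haptoglobin, which averaged 2.29 ± 0.54 at 8 h (SD, n = 3) and 1.12 ± 0.34 at 2 h (SD, n = 4). Among the markers that were not called, Spic, the transcription factor of red pulp macrophages, averaged 2.52 ± 0.10 at 8 h and 3.06 ± 0.35 at 2 h. Hmox1, the haem-degrading enzyme, averaged 1.06 ± 0.14 at 8 h and 0.98 ± 0.17 at 2 h. C1qa, the third chain of C1q, averaged 1.26 ± 0.20 over 2 arrays at 8 h and 2.27 ± 1.34 at 2 h. From bulk RNA, fewer cells of a type in the culture and less RNA of these genes per cell cannot be told apart. In the list of monocyte and macrophage markers, 1 of 12 rose, the IgG receptor gene Fcgr3, by 1.37 ± 0.35, and 1 fell, Ly6c1, by 1.00 ± 0.21. Fcgr3 was not called without repeat 3 of 8 h (adjusted p = 0.11).

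Genes of glycolysis and of the hypoxia response were mostly higher after 8 h. Of 26 members tested, 10 rose and 1 fell, and their median difference was 0.89, against -0.0052 for all genes tested. Pgk1, phosphoglycerate kinase, and Ero1a, an oxidase of the endoplasmic reticulum that is a hypoxia target, rose most. Their promoters are shown because 8 of the 9 risers with a promoter in the RefSeq table (GRCm38.p6) hold the letters ACGTG, the core of the hypoxia response element, on either strand of a window from 250 bases before to 50 after a start site. Of all 32851 promoters of that length in the table, 19.6% hold these letters. A gene with several start sites was counted when any of them matched, and a palindromic CACGTG counts on both strands. The 19.6% counts each promoter by itself, so it is not a like-for-like background. The list was chosen for genes of glycolysis and the hypoxia response, and its members that did not rise were not scanned. Whether the letters go with the rise was therefore not tested. The match is a description of the window and does not show that a factor binds there. The 250 bases before the start of Pgk1 lie on the plus strand at chrX:106186850-106187099 and those of Ero1a on the minus strand at chr14:45318573-45318822, each written 5′ to 3′ on the gene's strand with ACGTG or its complement CACGT in capitals.
Pgk1: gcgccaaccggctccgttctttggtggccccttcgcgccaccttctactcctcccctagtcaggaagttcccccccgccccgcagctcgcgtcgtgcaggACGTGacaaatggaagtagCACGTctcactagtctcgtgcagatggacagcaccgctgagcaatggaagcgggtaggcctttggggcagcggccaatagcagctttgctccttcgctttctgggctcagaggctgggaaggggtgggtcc
Ero1a: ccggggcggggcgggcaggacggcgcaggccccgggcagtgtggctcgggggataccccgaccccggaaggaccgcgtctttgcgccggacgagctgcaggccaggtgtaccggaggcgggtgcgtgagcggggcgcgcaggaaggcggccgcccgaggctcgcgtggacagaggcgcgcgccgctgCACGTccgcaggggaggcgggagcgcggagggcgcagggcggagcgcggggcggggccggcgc
The promoter of Pgk1 holds the letters at 2 places and that of Ero1a at 1, while the window of Pfkl, which also rose, holds none.

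Pgk1 read -0.87, 0.15 and -0.50 at 8 h, against -3.24, -3.42, -3.13 and -3.55 at 2 h. The gap between the groups was wider than either group's range, and Pgk1 rose by 2.93 ± 0.29, or 7.60-fold (limma adjusted p = 6.4e-08). Ero1a had -1.94, -1.19 and -1.28 at 8 h and -3.65, -3.32, -3.79 and -3.79 at 2 h, a rise of 2.17 ± 0.29. Pfkl, a subunit of phosphofructokinase, had 0.54, 1.46 and 1.43 at 8 h and -0.84, -0.55, -0.22 and -0.95 at 2 h. It rose by 1.78 ± 0.23, again without overlap.

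The other 7 risers of the list were 4 enzymes of glycolysis and 3 genes linked to low oxygen. Hk2 (hexokinase) rose by 0.93 ± 0.20, Aldoa (aldolase) by 1.82 ± 0.39 and Pkm (pyruvate kinase) by 1.62 ± 0.22. Pkm was very even within each time, at -0.67 ± 0.05 at 8 h and -2.29 ± 0.04 at 2 h (SD, n = 3 and 4). Egln1, the oxygen-sensing prolyl hydroxylase that marks the hypoxia-inducible factor for destruction, rose by 1.17 ± 0.23. Ndrg1 and Hilpda, which are induced by low oxygen, rose by 1.15 ± 0.27 and 1.19 ± 0.30. Gapdh rose by 1.60 ± 0.49 with overlapping groups, since its 8 h values spread with an SD of 1.57, and it was the only one of the 11 called members whose sign differed in medium, at -0.27.

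Not every member of the list moved the same way. Car9, the carbonic anhydrase induced by hypoxia, fell by 1.59 ± 0.37, with a mean of -2.06 ± 0.37 at 8 h and of -0.47 ± 0.49 at 2 h. Lactate dehydrogenase A (Ldha, 1.14 ± 0.38, adjusted p = 0.056) and the glucose transporter Slc2a1 (0.85, adjusted p = 0.054) did not pass the test. Vegfa, the vascular growth factor, had a difference of 0.15 and Egln3 of 0.28. Across 15 members measured on every array the mean log2 ratio was -1.01, -0.61 and -0.61 on the 8 h arrays, against -1.89, -1.86, -1.88 and -1.92 on the 2 h arrays, and at 4 h it lay between, at -1.48 to -1.30. Under the 17 alternatives 9 to 14 members of the list were called.

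**Figure D2:**
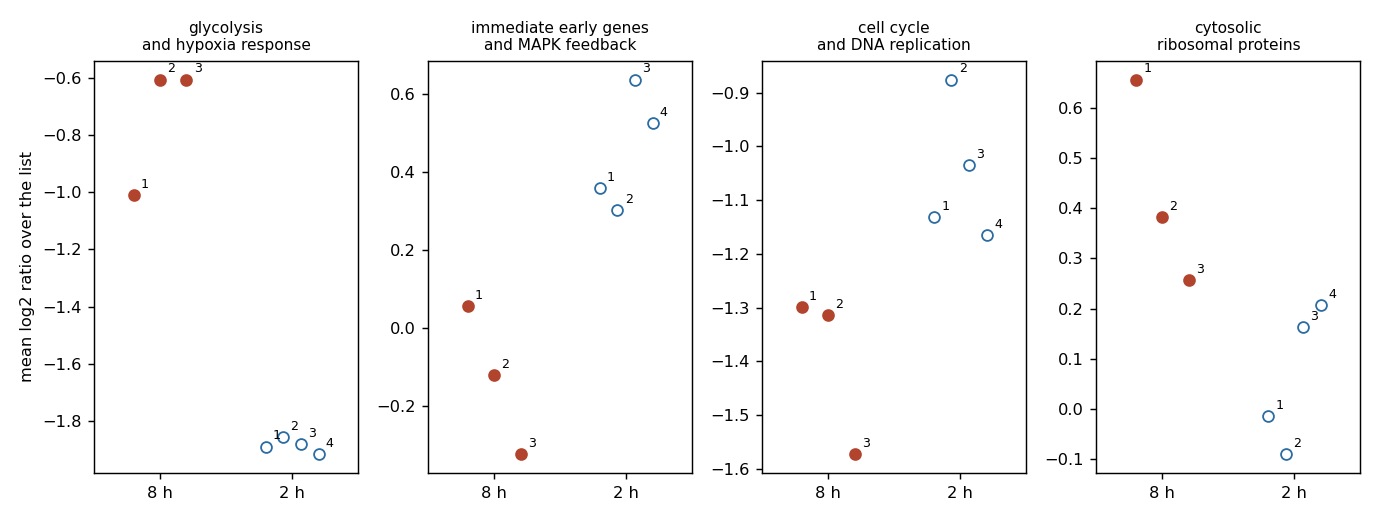
Mean log2 ratio on each array over the members, measured on all arrays, of 4 gene lists (15, 19, 29 and 36 genes), for 3 arrays of 8 h (filled) and 4 arrays of 2 h (open) with control ODN; digits are repeat numbers and the vertical scales differ. The 8 h arrays lie above the 2 h arrays for glycolysis and hypoxia response and for ribosomal proteins and below them for immediate early genes and for cell cycle genes.

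Of 31 immediate early genes and feedback genes of MAP kinase signalling tested, 7 fell and 1 rose after 8 h. The differences of 24 of the 31 were below 0, with a median of -0.54. The genes that fell were Klf4, Jund, Fosb, Nr4a2, Dusp4, Fos and Ier2. The cAMP response element, which CREB and AP-1 family proteins bind, has the core TGACG, and 4 of the 5 fallers with a promoter in the table hold these letters on either strand of the same window, against 20.8% of all promoters. The CArG box of the serum response factor was in none of the 5 windows and in 1.63% of all promoters. Sites further than 250 bases before a start were not scanned, so its absence holds for the window only. Members of the list that did not fall were not scanned either, so whether the letters go with the fall was not tested. TGACG was also in 3 of the 9 risers of glycolysis and hypoxia response with a promoter. ACGTG was in 2 of these 5 fallers. The 250 bases before the start of Klf4 (minus strand, chr4:55532476-55532725) and Fosb (minus strand, chr7:19310046-19310295) are given 5′ to 3′ with TGACG or its complement CGTCA in capitals, to show where the letters stand.
Klf4: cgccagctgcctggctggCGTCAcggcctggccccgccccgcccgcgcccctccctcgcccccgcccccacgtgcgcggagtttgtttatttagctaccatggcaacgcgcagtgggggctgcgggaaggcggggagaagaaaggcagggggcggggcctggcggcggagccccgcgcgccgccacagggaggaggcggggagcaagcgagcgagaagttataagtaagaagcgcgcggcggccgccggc
Fosb: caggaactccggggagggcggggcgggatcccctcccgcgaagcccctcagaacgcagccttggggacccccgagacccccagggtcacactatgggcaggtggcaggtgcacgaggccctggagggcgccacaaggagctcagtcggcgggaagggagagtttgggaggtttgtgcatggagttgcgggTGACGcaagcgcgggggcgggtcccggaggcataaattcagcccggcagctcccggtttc
Each of these windows holds the letters at 1 place, and that of Jund at none.

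Klf4, a zinc-finger transcription factor of quiescent cells and of macrophages, read -1.12, -1.61 and -2.03 at 8 h, against -0.06, -0.38, -0.01 and -0.16 at 2 h. Jund, an AP-1 subunit, had 0.20, 0.63 and 0.42 at 8 h and 1.66, 1.91, 2.13 and 2.22 at 2 h. Fosb, another AP-1 subunit, had -0.23, -0.28 and -0.62 at 8 h and 0.54, 1.36, 0.99 and 1.20 at 2 h. None of the 3 genes had overlapping groups, and they fell by 1.43 ± 0.20, 1.56 ± 0.22 and 1.40 ± 0.21.

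Nr4a2, an orphan nuclear receptor of the immediate early class, fell by 1.58 ± 0.36, and Dusp4, a phosphatase that switches off MAP kinases, by 1.41 ± 0.36, each measured on 2 of the 3 arrays of 8 h. Fos fell by 0.91 ± 0.27 and Ier2 by 1.20 ± 0.37. The member that rose, Mcl1, encodes an anti-apoptotic protein, and it rose by 0.72 ± 0.18. Egr1, Jun and Myc, which are often taken to stand for the class, had differences of -0.24, -0.40 and -0.40 and did not pass the test. Without repeat 2 of 8 h 3 members of the list were called, and without repeat 3 of 8 h 4.

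Among 24 chemokine genes, 4 rose and none fell, and leaving out any single array left the number at 4. Called members made up 16.7% of the list, against 10.1% of all genes tested. Cxcl12, the ligand of Cxcr4, read 0.23, 0.66 and 0.34 at 8 h, against -0.99, -1.16, -1.30 and -1.47 at 2 h, a rise of 1.64 ± 0.28. Ccl9, which attracts myeloid cells through Ccr1, read 2.15, 1.47 and 1.38 at 8 h, against 0.57, -0.16, -0.28 and -0.17 at 2 h, a rise of 1.68 ± 0.30. Cxcl14, a chemokine of epithelia, rose by 1.53 ± 0.31 (3 of 4 arrays at 2 h). All 3 had separate groups. Among the 20 that were not called, Ccl3 had a difference of 0.44, Ccl4 of -0.17, Ccl5 of 0.09 and Cxcl10 of -0.61. Over the 24 genes the median difference was 0.076.

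The cytokine list of 28 genes had 5 rises and 3 falls, so 28.6% were called, against 10.1% of all genes tested. Mif, macrophage migration inhibitory factor, which is also a hypoxia target, averaged -0.30 ± 0.72 at 8 h (SD, n = 3), against -2.53 ± 0.43 at 2 h (SD, n = 4). Its rise of 2.23 ± 0.30 was the largest of the list. Tnfsf13b, which encodes the B cell survival factor BAFF, read 1.03, 1.40 and 1.34 at 8 h, against -0.34, -0.71, -0.68 and -0.82 at 2 h. Both genes had groups that did not overlap, and Tnfsf13b rose by 1.89 ± 0.26. Il1rn, the antagonist of the interleukin 1 receptor, rose by 1.31 ± 0.23 and Ifng (interferon gamma) by 1.26 ± 0.30. Lif rose by 0.93 ± 0.26, with values on 2 of 4 arrays at 2 h. The falls were those of Tgfb3, of Tgfb1 (1.40 ± 0.44) and of Ebi3, the shared chain of interleukins 27 and 35 (1.70 ± 0.47, on 2 arrays at each time). Tnf, Il6, Il10 and Il12b had differences of 0.09, -0.61, -0.49 and 0.53 and did not pass the test. Without repeat 2 of 8 h 5 members of the list were called, and likewise 5 without repeat 3 of 8 h or without the arrays of lower experiment number.

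Of 33 genes of the interferon response, 7 rose and none fell, while the median difference was 0.018 and 17 of the 33 differences were above 0. The share called was 21.2%, against 10.1% of all genes tested. The risers were Oas3 (an oligoadenylate synthetase, 1.47 ± 0.28), Parp14 (1.14 ± 0.26), Trim30a (0.96 ± 0.25), Oas1g (0.90 ± 0.24), Mx2 (0.82 ± 0.25, 3 of 4 arrays at 2 h), Gbp4 (0.81 ± 0.25) and Trim21 (0.73 ± 0.19). Oas3 had 2.21, 2.46 and 2.77 at 8 h and 0.65, 1.67, 0.70 and 1.02 at 2 h, without overlap. Other well-known members, Ifit1, Ifit3, Isg15 and Rsad2, had differences of 0.04, -0.80, -0.39 and 0.06 and were not called. The number called was 3 without repeat 2 or repeat 3 of 8 h or without repeat 4 of 2 h, 3 after quantile normalisation and 2 in the fit of the 7 arrays alone.

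Genes of the cell cycle and of DNA replication were mostly lower after 8 h. Of 49 tested, 9 fell and 2 rose, and 40 of the 49 differences were below 0, with a median of -0.36. Orc6, a subunit of the origin recognition complex, had -1.93, -1.74 and -2.15 at 8 h and -0.61, -0.85, -0.75 and -1.19 at 2 h, a fall of 1.09 ± 0.21. Gins1, part of the replicative helicase, fell by 1.18 ± 0.29, with -2.98, -2.94 and -3.42 at 8 h and -2.06, -1.78, -1.64 and -2.25 at 2 h. Mcm5 and Mcm6 of the helicase, the nucleotide enzymes Tyms and Tk1, the licensing factor Cdt1 and the mitotic genes Cdca3 and Birc5 made up the other falls, of 0.65 to 1.09, with Mcm6 measured on 3 of 4 arrays at 2 h. The rises were those of Cdk6, a G1 kinase (1.46 ± 0.29), and Pola1, a DNA polymerase subunit (0.59 ± 0.19). Mki67, Mcm3 and Mcm4 had differences of -0.22, -0.0020 and 0.01. Without repeat 3 of 8 h 3 members of the list were called, and without repeat 2 of 2 h 6. The count was 4 without the arrays of lower experiment number and 7 after quantile normalisation.

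Ribosome assembly and the ribosomal proteins gave different counts. In the list of ribosome biogenesis and growth genes, 3 of 37 fell and none rose, namely Rrp15 (0.78 ± 0.18), Gar1 (0.63 ± 0.17) and Nolc1 (0.85 ± 0.26). Nolc1 was not called in 5 of the 7 omissions of 1 array and Gar1 in 3, and the list's count was 1 without repeat 2 or repeat 3 of 8 h. Among cytosolic ribosomal proteins, 17 of 53 rose and none fell, with rises of 0.49 to 0.72 and a median over the list of 0.39. Across 36 cytosolic ribosomal proteins measured on every array the mean log2 ratio was 0.66, 0.38 and 0.26 on the 8 h arrays, against -0.02, -0.09, 0.16 and 0.21 on the 2 h arrays. The count rested on single arrays and on the fit: it was 0 without repeat 1 of 8 h and 7 to 11 without any 1 of the 4 arrays of 2 h. It was 1 without the arrays of lower experiment number, 2 after quantile normalisation and 0 in the fit of the 7 arrays alone. In medium 0 of 53 members were called, with a median of 0.16, and 0 of 53 members differed between the time changes with control ODN and in medium. Only 1 of 49 genes of the respiratory chain changed, Ndufa13, which rose by 1.24 ± 0.22.

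Single genes of lymphocyte state changed. Itgal, the alpha chain of the integrin LFA-1, read 2.78, 2.93 and 2.87 at 8 h, against 1.45, 1.51, 1.29 and 1.41 at 2 h, and rose by 1.44 ± 0.20 without overlap. In the list of lymphocyte activation and costimulation, 3 of 31 rose and 3 fell. Of all genes tested 7.61% rose and 2.48% fell. Prdm1, the plasma cell regulator Blimp-1, rose by 1.22 ± 0.29 (3 of 4 arrays at 2 h), Cd274, the inhibitory ligand PD-L1, by 1.30 ± 0.36 and Batf, a partner of AP-1 factors, by 1.11 ± 0.33 (3 of 4 arrays at 2 h). Cd44, Cd86 and Il2rb fell by 0.84 ± 0.22, 1.15 ± 0.34 and 1.29 ± 0.42. Without repeat 3 of 8 h 0 of the 31 were called, without repeat 2 of 8 h 2, and 1 without the arrays of lower experiment number. Socs2, a suppressor of cytokine signalling, rose by 1.16 ± 0.24, with -0.07, -0.31 and -0.50 at 8 h and -1.46, -1.79, -1.44 and -1.13 at 2 h. Rgs3, a regulator of G protein signalling that was held in the glucocorticoid list, rose by 1.62 ± 0.31. Ikbke, a kinase of interferon and NF-kB signalling, rose by 0.91 ± 0.21 and was the only one to be called of the 26 tested in the signalling of TLR and NF-kB.

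In the remaining lists few members changed, and the share called was between 0% and 12.9% of a list, against 10.1% of all genes tested. In antigen presentation the class II regulators Rfxank (0.74 ± 0.20) and Ciita (0.93 ± 0.29) rose, 2 of 18, and among 30 genes of class I presentation and the proteasome 1 rose, Psme2 (0.75 ± 0.24). Each of these calls was lost on leaving out a single array. The oxidative stress list had 2 rises of 26, the glutathione enzymes Gstp1 (0.93 ± 0.24) and Gsr (0.67 ± 0.19). In the lysosome list Cd63 rose by 1.17 ± 0.23 and the cholesterol exporter Npc1 by 0.89 ± 0.23 (2 of 3 arrays at 8 h), while Axl and Scarb2 fell, 4 of 31 in all. Asns (asparagine synthetase) and Hspa1a rose among 25 genes of heat shock and the unfolded protein response. In lipid metabolism Stard4 rose by 0.81 ± 0.21 and Nr1h3, the oxysterol receptor, fell by 0.75 ± 0.24, 2 of 25. Pmaip1, a death-promoting BCL2 relative, fell by 0.79 ± 0.24 and Mcl1 rose, 2 of 33 apoptosis genes. None of 13 circadian clock genes was called, and Per2 had the smallest p, with a difference of -0.52 ± 0.20. Il17ra (0.58 ± 0.19) and Socs2 were the 2 called of 33 cytokine receptor genes. Many of these calls rested on single arrays: of the 7 omissions of 1 array, Il17ra was not called in 6, Pmaip1 in 5, Nr1h3 in 4, Gsr in 3, Asns in 2, and Gstp1 and Stard4 in 1 each.

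**Figure D3:**
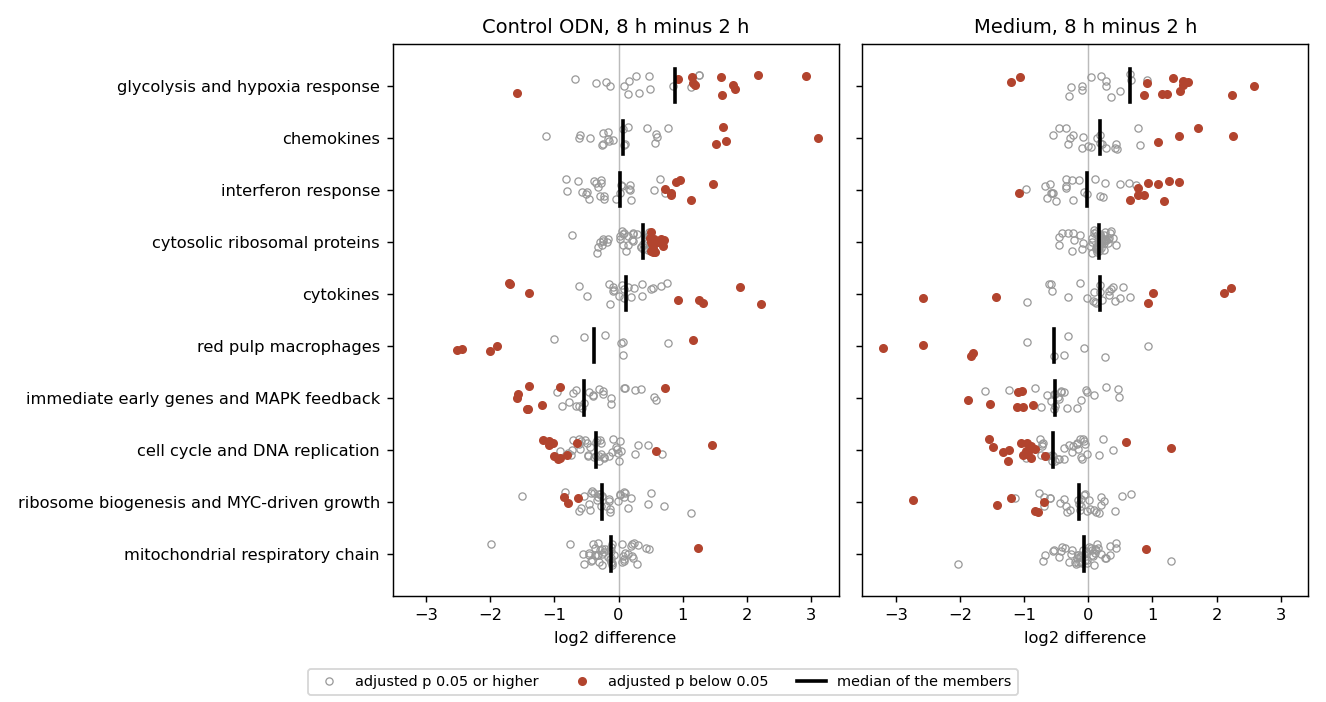
Log2 difference of 8 h minus 2 h for each member of 10 gene lists, with control ODN (left) and in medium (right), for members tested with control ODN. Filled points passed the limma test in that comparison, open points did not, vertical bars are medians, and the heights of points within a row have no meaning. Called members lie mainly above 0 for glycolysis and hypoxia response and mainly below 0 for immediate early and cell cycle genes in both kinds of culture.

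Markers of other cell types are given beside these results, and their part in them was not tested. Of all genes tested 7.61% rose and 2.48% fell, and most of these lists had few calls, so the counts describe the markers only. For B cells 1 of 16 markers rose, Pou2af1 (0.73 ± 0.20), and for T cells 2 of 14, Cd8a (1.02 ± 0.24, 3 of 4 arrays at 2 h) and Cd8b1 (1.36 ± 0.44, 2 of 3 arrays at 8 h). None of 10 natural killer cell markers was called, nor any of 6 markers of mast cells and basophils. The neutrophil list had 1 fall of 13, the granule protein gene S100a8, which averaged 3.74 ± 0.51 at 8 h (SD, n = 3) and 5.18 ± 0.39 at 2 h (SD, n = 4). S100a8 fell by 1.44 ± 0.32 without overlap, and 12 of the 13 differences of the list were below 0. Among 14 erythroid genes, Car1 fell by 1.99 ± 0.41, Rhd by 1.03 ± 0.30 and Blvrb by 0.89 ± 0.27, and Epb42 rose by 0.86 ± 0.24. Endothelial and stromal markers had 2 rises, of Tek (1.53 ± 0.24) and Cdh5 (1.37 ± 0.34), and the fall of Bgn, of 15. The platelet list had 1 rise of 8, Gp9 (0.88 ± 0.22), and the dendritic cell list 1 of 10, Ccl22. Prdm1 was the 1 of 8 plasma cell markers that was called. Of 14 genes of tissues in the reference RNA that the spleen is not known for, Fabp1 rose by 1.69 ± 0.23 and Alb fell by 1.21 ± 0.39, with Alb measured on 2 of 4 arrays at 2 h. Several of these marker calls were lost on leaving out 1 array, those of Cd8b1 and Alb in 4 and 2 of the 5 omissions that could be tested, and those of Epb42, Pou2af1 and Cdh5 in 3, 2 and 1 of 7.

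The 4 h arrays show when the changes came. Against 2 h, 121 of 9303 genes tested changed by 4 h (1.3%), 65 up and 56 down, and against 4 h, 242 of 9575 changed by 8 h (2.53%), 177 up (1.85%) and 65 down. These comparisons share the 4 h arrays, so they are set side by side only. Both counts depended on single arrays. The early count was 48 without repeat 4 of 2 h, 52 without its repeat 1, 65 without its repeat 3, 198 without its repeat 2, and 54 to 61 without repeat 1, 2 or 3 of 4 h. The late count was 21 without repeat 3 of 8 h, 41 without its repeat 2, and 88, 81 and 35 without repeat 1, 2 or 3 of 4 h. After quantile normalisation the early count was 156 and the late count 52. Of the late calls 57.7% were then up, against 73.1% in the main setting. A fit of the compared groups alone gave 59 early and 53 late, so which step had more calls depended on the processing. Of the 935 genes called over the whole interval, 96 were also called in the early step and 197 in the late step in the same direction.

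Among the 12 largest falls the early step was the larger for 9 and was called for 9. Vcam1 averaged 1.15, -0.54 and -1.36 at 2, 4 and 8 h, and Fcna 3.83, 2.08 and 1.61. Hfe was the only one of the 12 besides Vcam1 to be called in both steps, falling by 1.34 ± 0.14 and by 0.55 ± 0.15. Of the red pulp macrophage markers, 4 of 13 fell in the early step and 1 of 12 in the late step. The share of all genes tested that fell was 0.602% in the early step and 0.679% in the late step. Klf4 and Jund fell by 1.00 and 0.98 in the early step, and their late differences of -0.44 and -0.58 did not pass the test.

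Among the 12 largest rises, too, the early step was the larger for 9, and it was called for 6 and the late step for 3. Ccl22 had an early difference of 0.77, which was not called, and rose by 2.35 ± 0.28 in the late step. Pgk1 likewise had 0.74 early, not called, and rose by 2.19 ± 0.29 late, and Mif rose by 1.71 late after an early difference of 0.52. Ero1a changed earlier, with a rise of 1.78 by 4 h and a late difference of 0.39 that was not called. Wtap, Hnrnpll and Pfkl rose in the early step, by 2.00, 1.93 and 1.12. Of all genes tested 0.699% rose and 0.602% fell in the early step, and 1.85% rose and 0.679% fell in the late step. Within the list of glycolysis and hypoxia response 2 of 26 rose in the early step, and in the late step 4 of 29 rose and 1 fell. In the cell cycle list the early step had 1 fall of 49 and the late step 8 of 51, and the list's median was 0.10 in the early step and -0.38 in the late step. S100a8 stood at a mean of 5.20 at 4 h, and its fall of 1.46 came in the late step.

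**Figure D4:**
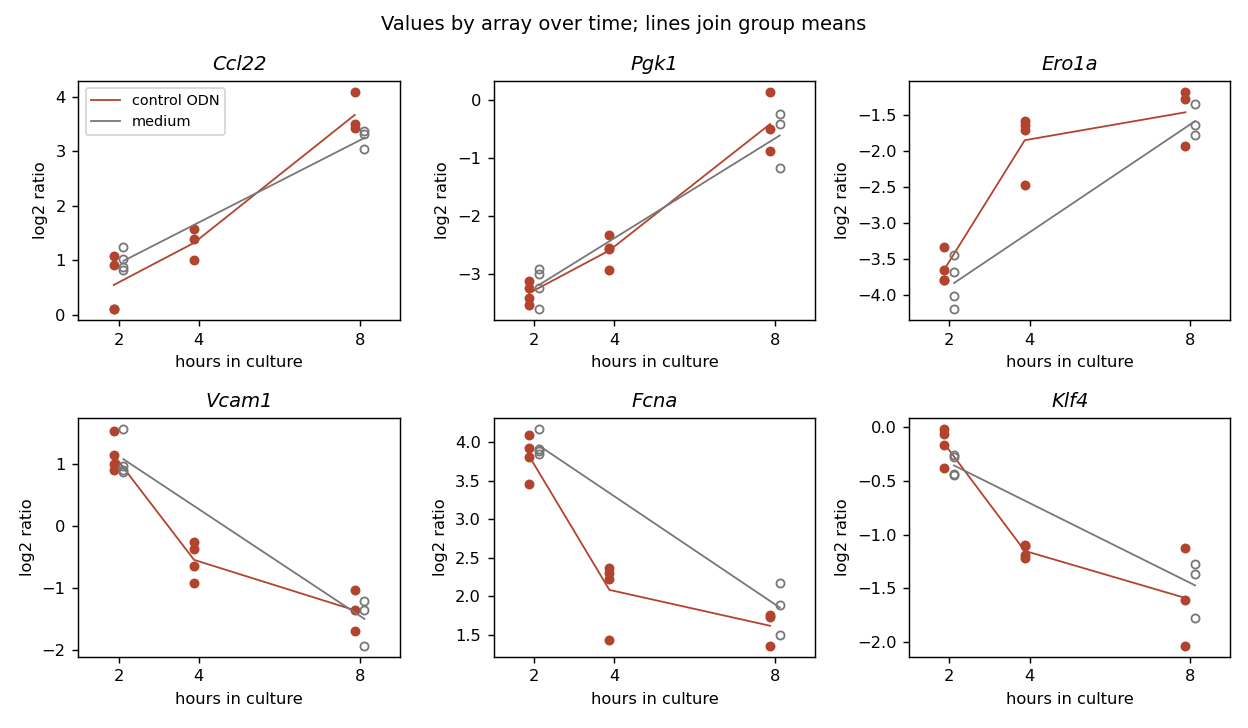
Log2 ratio to the reference RNA on each array by hours in culture, for 3 genes that rose and 3 that fell between 2 h and 8 h with control ODN (filled, 2, 4 and 8 h) and in medium (open, 2 and 8 h). Lines join the means; Ccl22 and Pgk1 changed mainly after 4 h, while Ero1a, Vcam1, Fcna and Klf4 had made most of their change by 4 h.

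Cultures in medium alone went through much of the same change. Between 2 h and 8 h in medium 1379 of 9475 genes tested changed (14.6%), 877 up (9.26%) and 502 down (5.3%), and the count was 792 without repeat 3 of medium at 8 h. The comparisons share no arrays in their means, but the fit gives both the same estimate of each gene's spread, so their calls are not separate tests. Every array also carries the same reference RNA. Control ODN and medium arrays of the same repeat number deviated together at 8 h (r = 0.48, 0.65 and 0.65 across genes). Of the 9103 genes tested in both, 652 were called in both, which is 70.4% of the control ODN calls and 48.2% of the medium calls. All 652 had the same direction. Of the 926 control ODN calls among these genes 918 had the same sign in medium. The correlation of the time changes across the 9103 genes was 0.73 (Pearson) and 0.66 (Spearman), as a description, since genes are not replicates.

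**Figure D5:**
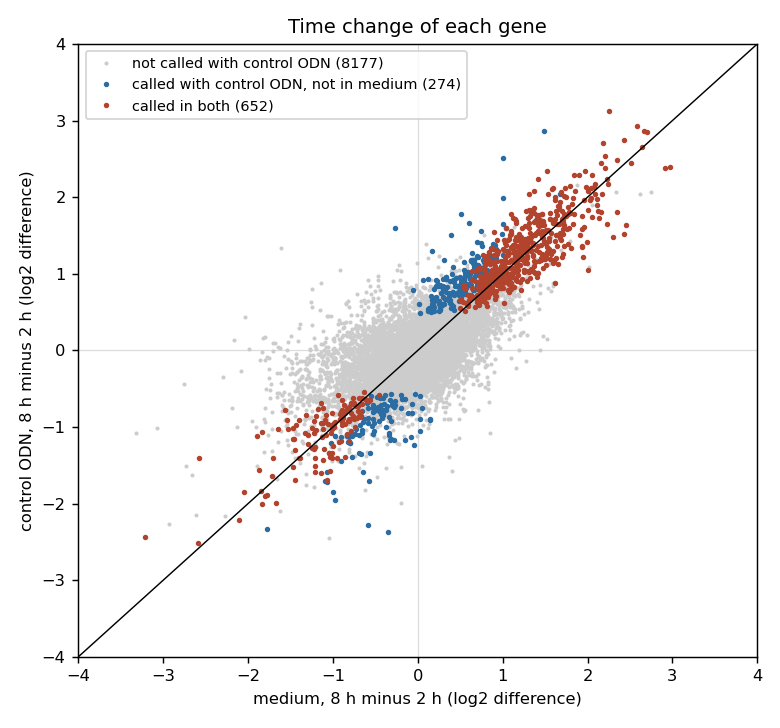
Log2 difference of 8 h minus 2 h with control ODN (vertical) against that in medium (horizontal) for 9103 genes, of which 1 lies outside the axes. Called genes (limma adjusted p below 0.05) are coloured by whether they were called in both kinds of culture (652) or with control ODN and not in medium (274), and the line marks equal change.

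The difference of the time changes was tested as an interaction, and 0 of 9103 genes were called (0%, limma), with 345 genes at an unadjusted p below 0.05, or 3.79%. The median standard error of this difference was 0.391, larger than that of a time change, and a p that misses the threshold does not show that the cultures changed alike. With the repeat number within each time as a block the median standard error was 0.334, 590 genes had an unadjusted p below 0.05, and again 0 were called, the smallest adjusted p being 0.258 for Gjb5 (2.13 ± 0.36) and Dqx1 (-1.93 ± 0.36). Without repeat 1 of medium at 8 h 1 gene was called. Vcam1 fell by 2.51 ± 0.23 with control ODN and by 2.59 ± 0.23 in medium, Hfe by 1.88 ± 0.15 and 1.77 ± 0.15, and Pgk1 rose by 2.93 ± 0.29 and 2.59 ± 0.29. Mif rose by 2.23 ± 0.30 in each. Ccl22 had the larger rise with control ODN, 3.12 ± 0.27, against 2.26 ± 0.27 in medium, an interaction of 0.86 ± 0.38 (adjusted p = 0.995). C1qb fell by 2.44 ± 0.22 with control ODN and fell by 3.21 ± 0.24 in medium, an interaction of 0.77 ± 0.32 (adjusted p = 0.995). Hspa1a rose by 2.51 ± 0.57 with control ODN and had 1.01 ± 0.57 in medium, which was not called, and its interaction of 1.51 ± 0.81 did not pass either.

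The lists were counted in medium in the same way, and several counts differed from those with control ODN, although no member of any list was called for the interaction. Of all genes tested 10.1% were called with control ODN and 14.6% in medium, so more calls in medium are not particular to a list. Cytosolic ribosomal proteins had 17 of 53 called with control ODN and 0 of 53 in medium. The lysosome list had 4 of 31 and 9 of 33, and the cytokine receptor list 2 of 33 and 7 of 33. The TLR and NF-kB list had 1 of 26 and 5 of 27, and ribosome biogenesis 3 of 37 and 6 of 40. For glycolysis and hypoxia response 11 of 28 rose and 2 fell in medium, for immediate early genes 0 of 32 rose and 7 fell, for chemokines 4 of 25 rose, for red pulp macrophages 4 of 12 fell, and for the cell cycle 2 of 48 rose and 15 fell. Of the 4 called chemokines all 4 were also called in medium, of the 8 called immediate early genes 6, of the 11 called cell cycle genes 10 and of the 11 called genes of glycolysis and hypoxia response 10. The 3 genes with the smallest interaction p were Atp1b4 (1.21 ± 0.32), Dqx1 (-1.93 ± 0.50) and Ccr6 (2.96 ± 0.83), each with an adjusted p of 0.995. With the block their adjusted p was 0.73, 0.258 and 0.73, and Ccr6 stood at rank 47 by p. Ccr6, a chemokine receptor of B and T cells, had 2.58 and 2.26 at 8 h with control ODN, against -0.08, 1.61, 1.75 and 1.02 at 2 h, and in medium -0.14 and 0.23 at 8 h, against 1.93, 1.48 and 1.58 at 2 h. Its values thus went in opposite directions in the arrays that measured it, and neither time change was called.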

How the data were processed

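Total RNA of spleen cells was labelled with Cy5 by aminoallyl cDNA and hybridised with Cy3-labelled Universal Mouse Reference RNA, per the labels' protocols, with no dye swap. The values were the log ratios the authors deposited, 1 per probe and array, taken as log2 because the base is not given in the sources used here. Scanning, background correction and filtering are likewise not given in the sources used here, so a missing value may be a spot the authors left out.

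Each of the 33 arrays was centred on its median. Of 16720 probes, 14656 had 1 gene symbol in the platform annotation, 6 had several and 2058 had none. Where a gene had several probes, the probe with the fewest missing values was used, which left 9672 genes. Group means of 9 groups were fitted over all arrays with limma 3.58.1 (R 4.3.3) and moderated with eBayes. A gene was tested with at least 2 measured arrays in each compared group, and p-values were adjusted over all genes tested by Benjamini-Hochberg, with calls at an adjusted p below 0.05. The procedure was tested on simulated data with noise drawn independently for each gene and array. The simulation did not include the deviation that arrays of the same repeat number shared at 8 h. The number of arrays limits the precision.

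Members and gene lists were chosen with earlier results of these data known. Named genes were the 12 largest rises and falls among called genes measured on all 7 arrays, the called members of smallest p of each list (up to 3 for functions and up to 2 for cell types), and the 3 genes of smallest p for the difference from medium. Other list members were named for their role or as all called members of a list, after their values were seen.

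Repeat numbers did not pair the 8 h with the 2 h arrays. Control ODN and medium arrays of 8 h with the same number did deviate together (r = 0.48, 0.65 and 0.65), and those of 2 h did not throughout (-0.17 to 0.41). Alternatives were quantile normalisation, no centring, array weights, other sets of arrays, probes and missing-value limits, and other thresholds. Promoters came from the RefSeq table of GRCm38.p6.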

Additional observations from a re-analysis of the deposited data

Results flagged for a closer look

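Groups of 4 arrays were examined for the named genes and for the mean values of some gene lists. Of 168 groups, 10 (5.95%) held 1 array far from the others. Far means a gap to the nearest array above Dixon's 95% critical share of the range. All 10 belonged to named genes, and chance alone flags about 1 in 20 groups. In 5 of them the array was a 2 h control ODN array. Ccl9 in repeat 1 was 0.57, against -0.28 to -0.16 in the other 2 h arrays. Cd44 in repeat 1 was 0.45, against 0.26 to 0.29. Rps26 in repeat 1 was -0.16, against 0.03 to 0.06, and Ndufa13 in repeat 1 was -0.88, against -0.42 to -0.36. Asns in repeat 4 was -3.89, against -3.05 to -2.96.

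The other 5 were 4 h control ODN arrays. Fcna in repeat 3 was 1.43, against 2.23 to 2.37, Cfp in repeat 3 was 0.80, against 1.09 to 1.14, and Gins1 in repeat 3 was -2.13, against -1.94 to -1.92. In repeat 4 Nolc1 was -0.022, against -0.43 to -0.37, and Ero1a was -2.47, against -1.71 to -1.59.

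Probes that carry no single gene symbol were outside the gene comparisons. Of 1001 such probes tested between 8 h and 2 h with control ODN, 142 were called (limma), 122 higher and 20 lower, and they are not named here.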

How the results depend on the processing

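The count of 935 genes for 8 h minus 2 h with control ODN was 468 in a fit of those groups alone, 487 at an adjusted p below 0.01, 530 with a log2 difference of at least 1, and 493 to 976 on leaving out 1 array. For 4 h minus 2 h (121) the same 3 settings gave 59, 32 and 71, array weights 223, a term marking the arrays of lower experiment number 64, and single arrays 48 to 198. For 8 h minus 4 h (242) they gave 53, 15 and 134, array weights 560, quantile normalisation 52 (30 up, 22 down), and single arrays 21 to 317. For medium (1379) they gave 380, 671 and 756, and single arrays 792 to 1618. The difference between the time changes had 0 calls under each alternative except 1 without repeat 1 of medium at 8 h. The 95 calls in functional lists were 61 after quantile normalisation (35 up, 26 down, 57.4% up against 68.4%), 41 in a fit of the 7 arrays alone, 60 without the arrays of lower experiment number, and 66 to 81 on leaving out 1 array. A table without centring gave 922 calls for 8 h minus 2 h.

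Of 85 named genes 79 were called, 46 of them on leaving out any single array and 40 under every alternative, and 0 turned direction. As a block across all groups, the repeat number gave 965 calls for 8 h minus 2 h, 162 for 4 h minus 2 h, 360 for 8 h minus 4 h, 1434 in medium and 0 for the difference. The pairing check gave r of 0.14, -0.13 and -0.06 for 8 h and 2 h arrays of the same number, so the block is not used for that comparison. Of the called genes with several probes tested (67), 26 had another probe of opposite sign, and for 4 genes such a probe had an unadjusted p below 0.05.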
